A study of Homo sapiens with 20 samples.

Results

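NRF2, the transcription factor encoded by NFE2L2, was followed together with 9 of its antioxidant target genes in MDA-MB-468 cells treated with epidermal growth factor (EGF). The 10 genes were chosen by name: NFE2L2, NQO1, HMOX1, GCLM, GCLC, TXNRD1, SRXN1, AKR1C1, AKR1C2 and AKR1B10. They are 10 of the 60271 genes in the deposited table, and all 10 passed the filter on low counts that left 16522 genes for testing. MDA-MB-468 is a triple negative breast cancer line of epithelial origin that carries high levels of the EGF receptor, and EGF is used in it to induce the epithelial-mesenchymal transition. RNA was sequenced from 5 groups of 4 biological replicates: untreated control cells, and cells kept with EGF at 50 ng/mL until 12, 24, 48 or 72 h had passed. EGF was added to cells kept without serum, and all groups were seeded and collected together, so that they differed in how long before collection EGF was given. The same untreated control group served every time.

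In resting cells the adaptor KEAP1 brings NRF2 to a CUL3 ubiquitin ligase, and NRF2 is broken down. When electrophiles or oxidants modify KEAP1, NRF2 escapes, enters the nucleus, pairs with a small MAF protein and binds antioxidant response elements near genes for glutathione synthesis, thioredoxin reduction, quinone reduction and carbonyl reduction. BACH1, a repressor, occupies many of the same elements, HMOX1 being its best known target. Because NRF2 is controlled largely at the protein level, the RNA of NFE2L2 and the RNA of its targets are separate measurements, and only RNA was measured here. In libraries made from whole cultures, fewer cells expressing a gene and less RNA of it per cell cannot be told apart.

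Promoter sequences were available for 8 of the 10 genes, in 10 windows of 250 bases before a RefSeq start site (GRCh38.p14); HMOX1 and AKR1B10 had none. The core of the antioxidant response element was searched on both strands as TGACNNNGC. GCLM and TXNRD1, members of the glutathione and thioredoxin branches, were the genes with a match in their windows, which is why these are shown, with the matched bases in capitals. Of 35116 windows of the same length, 10.9% held a match. Bases outside the windows were not searched, so a window without a match does not mean that the gene lacks the element. The related AP-1 motif TGANTCA matched in 0 of the 10 windows and in 6.57% of all windows; neither search says which protein binds.
GCLM (chr1:93909431-93909680, minus strand): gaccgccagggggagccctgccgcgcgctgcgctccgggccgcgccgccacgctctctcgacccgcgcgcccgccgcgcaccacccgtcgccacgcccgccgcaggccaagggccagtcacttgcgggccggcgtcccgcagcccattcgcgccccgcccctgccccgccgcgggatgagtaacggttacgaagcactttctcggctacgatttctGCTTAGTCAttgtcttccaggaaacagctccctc
TXNRD1, first start (chr12:104215529-104215778, plus strand): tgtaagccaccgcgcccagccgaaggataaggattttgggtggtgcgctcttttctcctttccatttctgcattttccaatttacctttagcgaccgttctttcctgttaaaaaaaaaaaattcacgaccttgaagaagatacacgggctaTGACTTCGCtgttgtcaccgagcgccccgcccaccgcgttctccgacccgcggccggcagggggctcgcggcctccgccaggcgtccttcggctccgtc
TXNRD1, second start (chr12:104286782-104287031, plus strand): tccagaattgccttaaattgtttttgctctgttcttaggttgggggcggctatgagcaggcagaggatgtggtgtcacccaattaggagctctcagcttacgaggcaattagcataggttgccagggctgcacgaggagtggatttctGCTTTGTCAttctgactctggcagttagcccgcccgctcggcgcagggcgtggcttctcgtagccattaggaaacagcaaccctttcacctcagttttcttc

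The GCLM match lay 34 to 26 bases before the start site, on the strand opposite to the gene. In TXNRD1 the matches lay 99 to 91 bases before one start site on the gene's strand, and 102 to 94 bases before the other on the opposite strand. AKR1C1 and AKR1C2, neighbouring genes for closely related enzymes, are shown because their windows shared an unbroken run of 245 bases; the few bases outside this run are in capitals, and neither window held a match.
AKR1C1 (chr10:4963165-4963414, plus strand): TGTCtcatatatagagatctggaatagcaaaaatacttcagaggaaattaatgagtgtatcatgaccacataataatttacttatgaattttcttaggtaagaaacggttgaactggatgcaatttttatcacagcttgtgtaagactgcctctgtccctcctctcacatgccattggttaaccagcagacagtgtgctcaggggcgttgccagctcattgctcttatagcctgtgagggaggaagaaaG
AKR1C2 (chr10:5003858-5004107, minus strand): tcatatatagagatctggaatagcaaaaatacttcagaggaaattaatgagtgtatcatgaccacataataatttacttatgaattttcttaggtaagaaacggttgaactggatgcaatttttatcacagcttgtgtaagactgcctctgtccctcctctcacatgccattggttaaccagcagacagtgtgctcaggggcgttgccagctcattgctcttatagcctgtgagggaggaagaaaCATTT

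The libraries held between 15611961 and 25856953 counts. Levels are given as CPM, counts per 1000000 counts of the library after scaling by edgeR's TMM factors. Of the epithelial markers, EPCAM was between 138 and 225 CPM and EGFR between 3357 and 12124 CPM over the 20 libraries. ESR1, the estrogen receptor, was at most 6.53 CPM. The keratins and ERBB2, also on the marker lists, are not reported here. PGR, the progesterone receptor, was at 0 in all libraries. Of the markers of other cell types, PTPRC, CD3E, VWF, CDH5, COL1A2, PDGFRB and DCN stayed under 1 CPM, and PECAM1 was between 0.221 and 5.17 CPM, whereas CD68 had a mean of 1.15 CPM in control cells and 26.7 at 72 h, and COL1A1 6.18 and 13.9. The mean share of mitochondrial counts was 10.9% in the control and, in the order of time, 9.41%, 12.4%, 12.5% and 15.0% with EGF. The part of these shares and markers in the results was not tested.

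Against the control, more of the 10 genes were lower than higher at 12 h, 24 h and 72 h, and the split was nearly even at 48 h. At 12 h, 1 gene was higher and 6 were lower (edgeR quasi-likelihood test, Benjamini-Hochberg adjusted p under 0.05), where 32.9% of all tested genes were higher and 36.5% lower. At 24 h, 2 were higher and 6 lower, against 29.2% and 29.6% of all genes. At 48 h, 4 were higher and 3 lower, against 24.0% and 21.8%. At 72 h, 3 were higher and 5 lower, against 30.6% and 31.0%. In the order of time, the median log2 fold change of the 10 genes was -0.39, -0.30, 0.08 and -0.16, while that of all tested genes lay between -0.05 and 0.01. The 4 comparisons share the same 4 control libraries. With factors per gene taken from the authors' normalized values the split at 72 h turned, with 4 higher and 3 lower, and at 12 h it was 4 and 5. Leaving out control replicate 3 made 2 genes higher at 12 h, leaving out control replicate 2 left 1 higher at 24 h, and leaving out control replicate 1 left 2 higher at 48 h.

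**Figure D1:**
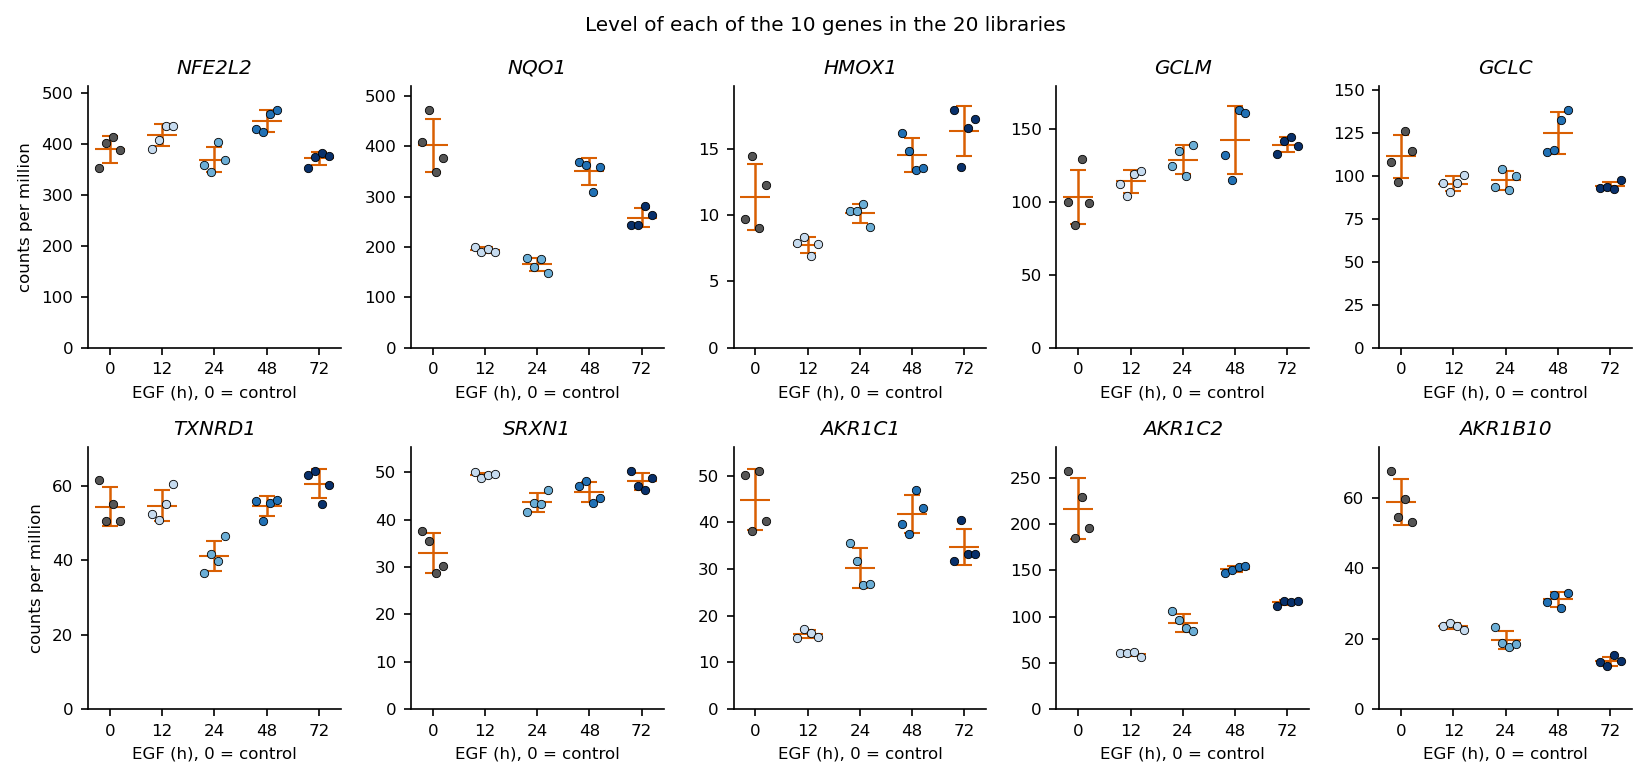
Level of each gene (vertical axis, CPM, from 0) in the 4 libraries of the control (0) and of each EGF time (hours); bars show the mean and SD of the 4 libraries. NQO1, AKR1C1, AKR1C2 and AKR1B10 were below all control libraries at 12 h, and SRXN1 was above them at every time.

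Between successive times the genes moved mostly together from 24 to 48 h. In that interval 8 of 10 rose and 0 fell, against 25.9% and 24.3% of all genes; the median log2 fold change was 0.44 for the 10 genes and 0.02 for all genes. GCLM (0.15 ± 0.11, SE) and SRXN1 (0.07 ± 0.07) were the genes that did not pass the test. From 12 to 24 h, 3 genes rose, namely HMOX1, AKR1C1 and AKR1C2, and NFE2L2, NQO1, TXNRD1, SRXN1 and AKR1B10, 5 in all, fell, against 27.9% and 25.9% of all genes. The 5 falls were between -0.18 and -0.41 on the log2 scale, and 1 to 3 of them passed the test when any 1 of the 8 libraries was left out. From 48 to 72 h, 0 rose and 5 fell, against 17.9% and 17.9% of all genes; NFE2L2, NQO1, GCLC, AKR1C2 and AKR1B10 were the genes that fell.

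NFE2L2 itself passed the test at 48 h alone. The gene lies on chromosome 2 (177227595-177392697, minus strand; GENCODE 29, GRCh38), and per kilobase of exon it was at 65.1 CPM in the control, the second highest of the 10 after NQO1 at 124. The control libraries were at 353, 402, 414 and 388 CPM, and the 12 h libraries at 390, 409, 435 and 436. At 24 h they were at 358, 346, 405 and 369 CPM, at 48 h at 429, 424, 459 and 467, and at 72 h at 353, 375, 383 and 376. All 4 libraries at 48 h were above all control libraries, and the other groups overlapped the control. The 48 h difference was 0.19 ± 0.06 (log2, SE, adjusted p = 0.0147), and it was 0.15 and no longer passed without control replicate 1. It did not pass without a filter or with only the 8 libraries compared either (0.19 each). At 12, 24 and 72 h the differences were 0.10, -0.08 and -0.07 and did not pass the test. Scaling by library size alone gave -0.18 at 12 h and -0.22 at 24 h, both past the threshold, whereas factors per gene taken from the authors' normalized values gave 0.21 at 12 h, past it in the other direction. In the order of levels, from 48 h (445 CPM) through 12 h (417), control (389) and 72 h (372) to 24 h (369), no neighbours differed beyond their spread. AC019080.1, a gene on the same strand, covers 17.6% of the exon bases of NFE2L2 and was listed at 34 to 178 counts per library, against at least 5881 for NFE2L2.

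Most of the genes in a list of 12 regulators and partners of NRF2 were higher with EGF. Of the 12, 8 were higher than the control at each of the 4 times, while 1, 0, 1 and 2 were lower in the order of time. Among all tested genes, 32.9%, 29.2%, 24.0% and 30.6% were higher in that order, and 36.5%, 29.6%, 21.8% and 31.0% lower. The list's median log2 fold change was 0.82, 0.49, 0.34 and 0.71 in the order of time. MAFF, a small MAF partner, rose from 3.22 CPM in the control to 17.8 at 12 h (2.47 ± 0.16, log2, SE, adjusted p = 2.78e-12) and was at 10.7, 6.94 and 14.5 CPM at the later times in order. BACH1, the repressor, rose from 23.8 to 77.8 CPM at 12 h (1.71 ± 0.10, adjusted p = 4.42e-13) and was at 53.4, 34.7 and 46.4 CPM at the later times. All 4 libraries at each time were above all control libraries for both genes. The 3 genes of the KEAP1 and CUL3 ligase, which marks NRF2 for breakdown, had differences between -0.36 and 0.22 where they passed the test. KEAP1 was at 52.2 CPM in the control and 61.1 at 48 h (0.22 ± 0.07, adjusted p = 0.0169), and its differences at the other times, between -0.09 and 0.07, did not pass the test. CUL3, the scaffold of the ligase, fell by 0.23 at 48 h and by 0.36 at 72 h on the log2 scale. RBX1, its RING subunit, fell by 0.18 at 12 h and by 0.17 at 72 h. The RBX1 call at 72 h was lost without control replicate 1, 3 or 4 or EGF 72 h replicate 1 or 2 (-0.14 to -0.17). Without a filter (-0.17) or with at least 10 counts in every library (-0.12) it was lost too. So it was with only the 8 libraries compared (-0.17), DESeq2's size factors in edgeR (-0.15) or DESeq2's Wald test (-0.15). The RBX1 call at 12 h was lost without control replicate 1, 3 or 4 or EGF 12 h replicate 2 (-0.16 to -0.17), without a filter (-0.14) and with factors per gene from the authors' normalized values (-0.13). The KEAP1 call was lost without control replicate 3 (0.18) or EGF 48 h replicate 2 (0.17). It was also lost with only the 8 libraries compared (0.22) and with factors per gene from the authors' normalized values (0.10). With library size alone, KEAP1 passed as lower at 12 h (-0.22) and 24 h (-0.23). With factors per gene from the authors' normalized values it passed as lower at 24 h (-0.28). The CUL3 call at 48 h was lost with only the 8 libraries compared (-0.23). GSK3B, a kinase that prepares NRF2 for a different ligase and is named here after its values were seen, rose from 172 CPM in the control to 360 at 12 h (1.07 ± 0.07, adjusted p = 6.78e-12) and was at 237 CPM at 24 h, with all libraries of both times above the highest control.

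GCLM and GCLC encode the modifier and the catalytic subunit of glutamate-cysteine ligase, which carries out the first step of glutathione synthesis, and at 24 and 72 h GCLM was higher and GCLC lower than the control. GCLM lies on chromosome 1 (93885205-93909456, minus strand). Its control libraries were at 100.1, 84.4, 129 and 99.5 CPM, and those at 72 h at 133, 142, 144 and 138. All 72 h libraries were above all control libraries. At 12 h GCLM was between 104 and 121 CPM, at 24 h between 118 and 139, and at 48 h between 115 and 163. The rise passed the test at 24 h (0.32 ± 0.11, adjusted p = 0.0140), 48 h (0.47 ± 0.11, adjusted p = 0.00109) and 72 h (0.43 ± 0.11, adjusted p = 0.00143), and not at 12 h (0.14 ± 0.11). The 24 h value was 0.24 and did not pass without control replicate 2, nor with library size alone (0.18). The 12 h value passed without control replicate 3 (0.27) and with factors per gene from the authors' normalized values (0.47). No neighbours in the order of GCLM levels (48 h, 72 h, 24 h, 12 h, control) differed beyond their spread.

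GCLC, on chromosome 6 (53497341-53616970, minus strand), was lower than the control at 12 h (-0.22 ± 0.08, adjusted p = 0.0142), 24 h (-0.19 ± 0.08, adjusted p = 0.0344) and 72 h (-0.24 ± 0.08, adjusted p = 0.00889). The control libraries were at 108, 96.6, 126 and 115 CPM and those at 72 h at 92.8, 93.7, 92.1 and 97.9, so that 3 of the 4 lay below the lowest control. At 48 h GCLC was between 114 and 139 CPM, a difference of 0.17 ± 0.08 that did not pass the test (adjusted p = 0.0805). It passed without control replicate 3 (0.23) and without EGF 48 h replicate 1 or replicate 2 (0.21 each). The 12 h call was lost without control replicate 3 (-0.15) and without EGF 12 h replicate 2 (-0.19), and the 24 h call without any of control replicate 3, control replicate 4, EGF 24 h replicate 1 and EGF 24 h replicate 3 (-0.13 to -0.18). With factors per gene taken from the authors' normalized values, the GCLC differences at 12, 24 and 72 h were 0.16, -0.02 and -0.02, none past the threshold, and the 48 h difference was 0.46 and passed. The 48 h difference also passed with upper-quartile scaling (0.18) and with at least 10 counts in every library (0.20). Without a filter the 12 and 24 h calls were lost (-0.18 and -0.19), and with only the 8 libraries compared the 24 h call was lost (-0.19).

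The ratio of GCLM counts to GCLC counts within a library was examined after these values had been seen and is given as a description. It was 0.923 ± 0.072 (SD, n = 4) in the control, between 0.868 and 1.02. With EGF it was 1.19 ± 0.042 at 12 h and 1.32 ± 0.048 at 24 h. At 48 h it was 1.14 ± 0.0996, and at 72 h 1.48 ± 0.072. Every library at 12, 24 and 72 h was above all control libraries, while 1 of the 48 h libraries, at 0.997, lay inside the control range.

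**Figure D2:**
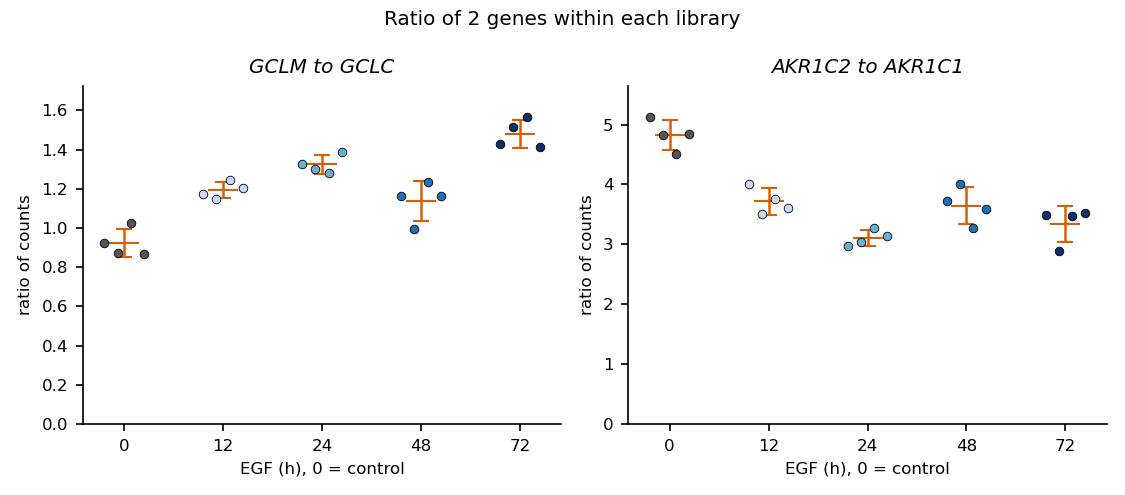
Ratio of counts of GCLM to GCLC (left) and of AKR1C2 to AKR1C1 (right) in each library of the control (0) and of each EGF time (hours); bars show the mean and SD of 4 libraries. The left ratio had a mean of 0.923 in the control and 1.48 at 72 h, and the right ratio 4.83 in the control and 3.11 at 24 h.

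Other genes of glutathione supply, use and export were split. Of 15 tested, 4 were higher and 9 lower at 12 h, 6 and 6 at 48 h, and 6 and 8 at both 24 and 72 h. The shares at 12 h were 26.7% and 60.0%, against 32.9% and 36.5% of all genes, and at 48 h 40.0% each, against 24.0% and 21.8%. At both 24 and 72 h they were 40.0% and 53.3%, against 29.2% and 29.6% at 24 h and 30.6% and 31.0% at 72 h. SLC7A11, the cystine carrier that feeds glutathione synthesis, was at 21.1 CPM without EGF and did not pass the test at 12 h (-0.23 ± 0.11, adjusted p = 0.0638), and it was higher at 24 h (38.1 CPM), 48 h (28.6) and 72 h (37.4). At 12 h it passed as lower with the replicate block (-0.22), library size alone (-0.51), upper-quartile scaling (-0.39) or at least 10 counts in every library (-0.27), and without control replicate 1, control replicate 2 or EGF 12 h replicate 4 (-0.27 to -0.31). ABCC3, an exporter of conjugates, rose to 65.3 CPM at 12 h (1.71 ± 0.11, adjusted p = 1.25e-12). GLRX, a glutaredoxin that uses glutathione as its reductant, rose from 14.3 to 47.6 CPM at 72 h (1.74 ± 0.09, adjusted p = 1.50e-14). GGT1, which breaks glutathione down outside the cell, fell from 3.34 to 0.264 CPM at 24 h (log2 fold change -3.72, and -4.73 without EGF 24 h replicate 3), from control libraries between 1.15 and 4.67 CPM, and GSTA4, a glutathione transferase, fell from 11.5 to 3.54 CPM at 12 h.

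TXNRD1 encodes the cytosolic thioredoxin reductase and lies on chromosome 12 (104215779-104350305, plus strand). In the test it was lower at 24 h alone. Without EGF the libraries were at 61.5, 50.6, 55.0 and 50.5 CPM, and the 24 h libraries at 36.6, 41.8, 39.8 and 46.5, all below the lowest control (-0.40 ± 0.08, adjusted p = 0.000191). At 12, 48 and 72 h the mean levels were 54.7, 54.5 and 60.6 CPM, and the differences did not pass the test. With factors per gene from the authors' normalized values the 24 h difference was -0.20 and did not pass. The 72 h difference (0.16 ± 0.08, adjusted p = 0.0993) passed without control replicate 1 (0.22), with at least 10 counts in every library (0.21) and with factors per gene from the authors' normalized values (0.38). At 12 h library size alone gave a lower level (-0.28) and factors per gene from the authors' normalized values a higher one (0.43), both past the threshold. In the order of levels, 24 h differed from its neighbour, the control, and the other neighbours did not differ beyond their spread.

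SRXN1, for sulfiredoxin, which repairs overoxidised peroxiredoxins, was the member that was higher at every time. Without EGF the libraries were at 37.6, 35.6, 28.8 and 30.2 CPM and the 12 h libraries at 50.1, 48.9, 49.5 and 49.6. At 24 h they were at 41.6, 43.6, 43.4 and 46.4, at 48 h at 47.2, 48.2, 43.5 and 44.6, and at 72 h at 50.3, 47.2, 46.3 and 48.9. Every treated library was above every control library. SRXN1 rose by 0.58 ± 0.07 at 12 h (log2, SE, adjusted p = 2.07e-07) and by 0.54 ± 0.07 at 72 h (adjusted p = 8.85e-07), and the rises at 24 and 48 h were 0.40 ± 0.07 and 0.47 ± 0.07. Among the EGF times, no neighbours in the order of levels differed beyond their spread. SRXN1 lies on chromosome 20 (646615-653370, minus strand), and its counts are uncertain, because AL121758.1, a protein-coding gene on the same strand, covers 85.0% of its exon bases. In 19 of 20 libraries AL121758.1 was listed at 0 and in the remaining one at 6 counts, against at least 629 counts for SRXN1.

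Of 9 other thioredoxin and peroxiredoxin genes tested, 5 or 6 were lower than the control at each time and 1 or 2 higher. The shares lower were 55.6% to 66.7%, against 21.8% to 36.5% of all genes. The shares higher were 11.1% to 22.2%, against 24.0% to 32.9%. TXN, for cytosolic thioredoxin, was among the higher ones at 12 h (337 to 465 CPM, 0.47 ± 0.12, adjusted p = 0.00162) and 24 h (509 CPM). The 12 h call was lost with library size alone (0.18). PRDX2, a cytosolic peroxiredoxin, fell from 266 to 138 CPM at 24 h and to 126 at 72 h. TXN2 and TXNRD2, the mitochondrial thioredoxin and its reductase, fell by 0.79 at 12 h and by 0.70 at 48 h, respectively, on the log2 scale, and the peroxiredoxin PRDX5 rose by 0.45 at 48 h and 0.65 at 72 h.

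NQO1, the quinone reductase often read as a marker of NRF2 activity, was lower than the control at every time and nearest to it at 48 h. It lies on chromosome 16 (69706996-69726951, minus strand). The control libraries were at 408, 472, 350 and 377 CPM. At 12 h they were at 201, 190, 196 and 190 CPM, and at 24 h at 178, 159, 175 and 149. At 48 h they were at 369, 363, 310 and 358 CPM, and at 72 h at 244, 244, 282 and 262. The libraries at 12, 24 and 72 h were all below the lowest control, whereas at 48 h 1 of 4 was. NQO1 fell by 1.05 ± 0.08 at 12 h (log2, SE, adjusted p = 7.36e-11), by 1.28 ± 0.08 at 24 h (adjusted p = 3.69e-12) and by 0.64 ± 0.08 at 72 h (adjusted p = 3.77e-07). At 48 h the difference was -0.20 ± 0.08 (adjusted p = 0.0485), and it did not pass without control replicate 1 (-0.19), control replicate 2 (-0.11), EGF 48 h replicate 3 (-0.15) or EGF 48 h replicate 4 (-0.21), nor under 7 of the alternative settings (-0.16 to -0.21). Between 24 and 48 h NQO1 rose by 1.08 ± 0.08 (adjusted p = 3.44e-10), in 4 of 4 libraries. In the order control, 48 h, 72 h, 12 h, 24 h, all neighbours differed. AC092115.2, an antisense gene over 17.7% of its exon bases, was listed at 0 in all 20 libraries.

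HMOX1, the inducible heme oxygenase that opens heme and releases its iron, was low at 12 h and high at 48 and 72 h. It lies on chromosome 22 (35380361-35394214, plus strand) and had the lowest level per kilobase of the 10 genes in the control, 4.74 CPM. The control libraries were at 9.74, 14.5, 9.01 and 12.3 CPM and the 12 h libraries at 7.93, 8.34, 6.90 and 7.79, all below the lowest control (-0.56 ± 0.13, adjusted p = 0.000507). At 24 h they were at 10.3, 10.3, 10.8 and 9.08 CPM, within the control range. At 48 h they were at 16.2, 14.9, 13.4 and 13.6 and at 72 h at 18.0, 13.7, 16.6 and 17.2, with 2 and 3 of 4 libraries above the highest control. The rise was 0.35 ± 0.12 at 48 h (adjusted p = 0.0246) and 0.52 ± 0.12 at 72 h (adjusted p = 0.000764). The 48 h call was lost without control replicate 1 (0.28), control replicate 3 (0.24) or EGF 48 h replicate 1 (0.29), and with only the 8 libraries compared (0.35). The 24 h level passed as lower with library size alone (-0.32). The change from 12 to 72 h was 1.08 ± 0.13 (adjusted p = 9.67e-08), in 4 of 4 libraries.

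Of 7 other heme and iron genes, 4 were lower and 1 higher at 12 h, and 4 and 0 at 24 h. At 48 h 0 were lower and 2 higher, and at 72 h 2 and 3. In the order of time, the shares lower were 57.1%, 57.1%, 0% and 28.6%, against 36.5%, 29.6%, 21.8% and 31.0% of all genes. The shares higher were 14.3%, 0%, 28.6% and 42.9%, against 32.9%, 29.2%, 24.0% and 30.6%. FTL, the light chain of ferritin, which stores iron, rose from 147 to 267 CPM at 72 h (0.86 ± 0.10, adjusted p = 1.26e-07, edgeR). Its level was below the control at the 2 earliest times. Leaving out 1 library at a time gave FTL log2 fold changes of -0.46 to -0.25 at 12 h and -0.80 to -0.59 at 24 h. BLVRB, a biliverdin reductase, rose from 53.0 to 79.9 CPM at 48 h. FECH, which completes heme synthesis, fell from 22.8 to 10.3 CPM at 12 h.

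The aldo-keto reductases reduce carbonyls of steroids, retinoids and lipid aldehydes, and AKR1C2 and AKR1B10 had the largest falls of the 10 genes. AKR1C2 lies on chromosome 10 (4987400-5018031, minus strand). In control cells it was at 257, 184, 230 and 195 CPM and the 12 h libraries at 61.0, 60.1, 61.4 and 56.0. At 24 h they were at 106, 96.6, 87.3 and 84.2, at 48 h at 148, 149.8, 153 and 154, and at 72 h at 111, 117, 116 and 117. All treated libraries were below the lowest control. AKR1C2 fell by 1.86 ± 0.09 at 12 h (adjusted p = 5.78e-15), by 1.21 ± 0.08 at 24 h, by 0.52 ± 0.08 at 48 h and by 0.91 ± 0.08 at 72 h (adjusted p = 1.77e-09). In the order control, 48 h, 72 h, 24 h, 12 h, all neighbours differed.

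AKR1C1, on the same chromosome (4963253-4983283, plus strand), had its highest mean in the control and its lowest at 12 h, as AKR1C2 did. In the order control, 48 h, 72 h, 24 h, 12 h, the last pair differed, and the other neighbours did not differ beyond their spread. It was between 38.2 and 50.9 CPM in the control, between 15.2 and 17.2 at 12 h, between 26.7 and 35.5 at 24 h, between 37.4 and 46.9 at 48 h and between 31.8 and 40.4 at 72 h. The 12 and 24 h libraries were all below the lowest control, and the 48 h libraries overlapped it. AKR1C1 fell by 1.48 ± 0.11 at 12 h (adjusted p = 3.45e-11), by 0.57 ± 0.11 at 24 h and by 0.37 ± 0.11 at 72 h (adjusted p = 0.00423; -0.35 and not past the threshold with factors per gene from the authors' normalized values), and the 48 h difference of -0.10 ± 0.11 did not pass the test. Of all stretches of 75 bases, the length of a read, in AKR1C1 transcripts 21.7% also occur in AKR1C2, and 29.1% of those in AKR1C2 occur in AKR1C1, so that the split between the paralogs is uncertain. Summed with AKR1C3, a further paralog, the counts gave log2 fold changes of -1.78, -1.07, -0.43 and -0.79 in the order of time, all past the threshold. The ratio of AKR1C2 to AKR1C1 counts, a description chosen after the values were seen, was 4.83 ± 0.25 (SD, n = 4) in the control and 3.72, 3.11, 3.65 and 3.35 at the 4 times in order. AKR1C3 was low, falling from 3.74 to 0.959 CPM at 12 h (-1.95 ± 0.17, adjusted p = 6.62e-10).

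AKR1B10, which reduces retinal and other aldehydes, lies on chromosome 7 (134527592-134541408, plus strand) and had its lowest level at 72 h. The control libraries were at 67.5, 54.4, 59.5 and 53.1 CPM, the 12 h libraries at 23.5, 24.4, 23.6 and 22.6, and the 24 h libraries at 23.3, 18.8, 17.6 and 18.5. At 48 h they were at 30.3, 32.5, 28.6 and 33.0 CPM and at 72 h at 13.3, 12.2, 15.2 and 13.7. All treated libraries were below the lowest control, and the 72 h libraries were below all others. AKR1B10 fell by 1.32 ± 0.09 at 12 h, by 1.58 ± 0.09 at 24 h, by 0.91 ± 0.09 at 48 h and by 2.11 ± 0.10 at 72 h (adjusted p = 3.22e-15). From 48 to 72 h it fell by 1.19 ± 0.10 (adjusted p = 1.18e-09), in 4 of 4 libraries. All neighbours in the order control, 48 h, 12 h, 24 h, 72 h differed. Of its 75-base stretches, 3.87% also occur in AKR1B15.

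**Figure D3:**
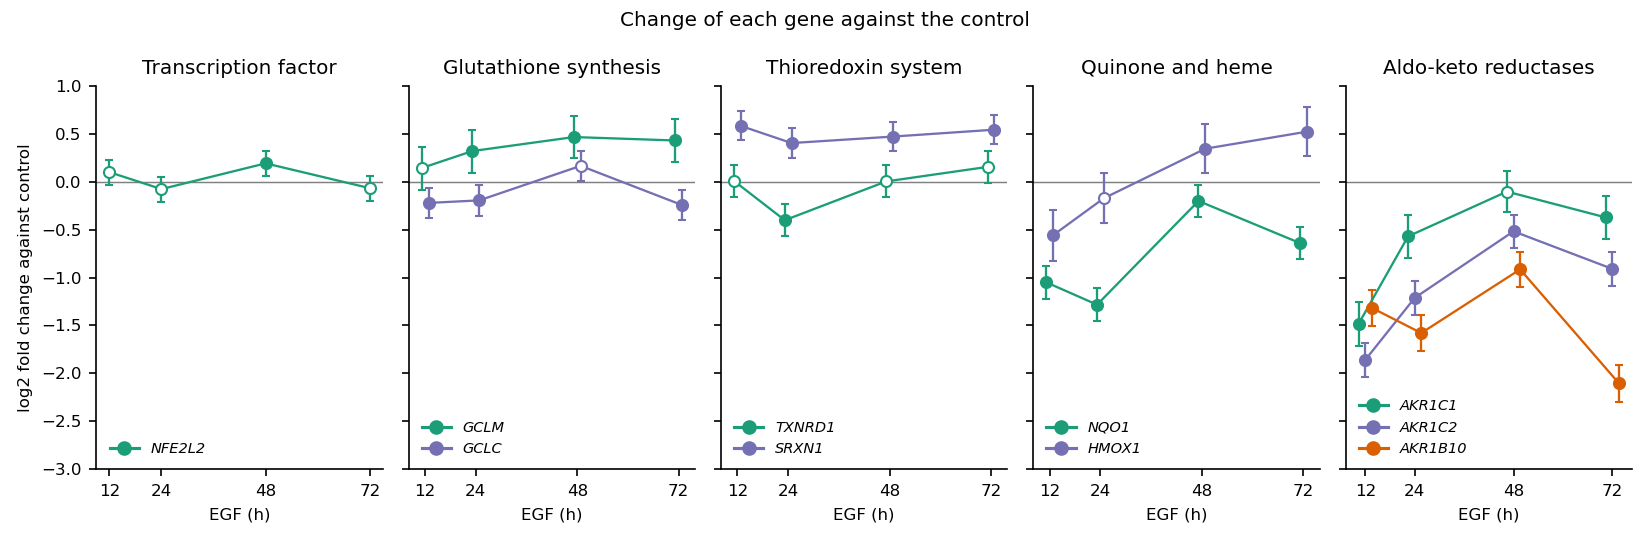
Log2 fold change against the control (vertical axis) at each EGF time (horizontal axis, hours) for the 10 genes by role; bars are 95% confidence intervals, and filled points passed the test. The aldo-keto reductases and NQO1 lay below 0 and nearest to it at 48 h, while SRXN1 lay above 0, as did GCLM from 24 h on.

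Other genes for carbonyl, quinone and epoxide reduction were more often lower than higher at 12 h (6 and 2 of 12) and 24 h (7 and 4), but not at 48 h (1 and 3). At 72 h the counts were 4 and 3. Among all tested genes, 36.5%, 29.6%, 21.8% and 31.0% were lower in the order of time, and 32.9%, 29.2%, 24.0% and 30.6% higher. The list's share lower was 58.3% at 24 h and 8.33% at 48 h, and at 72 h, at 33.3%, it was near that of all genes. Its share higher at 48 h was also near that of all genes. AKR1B1, aldose reductase, rose from 119 CPM in the control to 194 at 24 h, 314 at 48 h (1.40 ± 0.07, adjusted p = 1.94e-13) and 230 at 72 h (0.95 ± 0.07, adjusted p = 7.08e-11), opposite to AKR1B10. EPHX1, the microsomal epoxide hydrolase, fell from 190 CPM to 72.1 at 72 h (-1.40 ± 0.11, adjusted p = 5.08e-11). ALDH3A1, an aldehyde dehydrogenase of low level, fell from 1.64 to 0.288 CPM at 24 h and rose to 4.54 at 48 h.

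Among genes that supply NADPH, the reductant that these enzymes use, 0 of 6 were higher and 2 lower at 12 h, and 0 and 3 at 24 h. By 72 h, 1 was higher and 5 lower, after 1 and 1 at 48 h. In the order of time, the shares lower were 33.3%, 50.0%, 16.7% and 83.3%, against 36.5%, 29.6%, 21.8% and 31.0% of all genes. The shares higher were 0%, 0%, 16.7% and 16.7%, against 32.9%, 29.2%, 24.0% and 30.6%. IDH1, the cytosolic isocitrate dehydrogenase, fell from 304 to 105 CPM at 12 h (-1.53 ± 0.11, adjusted p = 9.58e-12). ME1, malic enzyme, rose from 187 to 267 CPM at 48 h. Of the superoxide and peroxide genes, SOD2 rose at every time, from 73.8 CPM to between 102 and 130 (0.81 at 72 h, and 1.49 with factors per gene from the authors' normalized values), and CAT, catalase, fell from 291 to 145 CPM at 12 h. PIR, another NRF2 target, fell from 29.8 CPM to 9.03 at 12 h and 7.88 at 24 h, while OSGIN1 rose from 3.75 to 6.75 CPM at 48 h and 7.29 at 72 h.

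Over all 8 lists, 67 of 72 genes were tested, with 18 higher and 31 lower at 12 h (26.9% and 46.3%, against 32.9% and 36.5% of all genes) and 20 and 31 at 24 h (29.9% and 46.3%, against 29.2% and 29.6%). At 48 h 23 were higher and 16 lower (34.3% and 23.9%, against 24.0% and 21.8%), and at 72 h 24 and 31 (35.8% and 46.3%, against 30.6% and 31.0%). The median log2 fold change of the 67 was -0.15, -0.10, 0.06 and -0.10 in the order of time. From 24 to 48 h, 35 rose and 13 fell (52.2% and 19.4%, against 25.9% and 24.3% of all genes). From 48 to 72 h, 13 rose and 24 fell (19.4% and 35.8%, against 17.9% and 17.9%). Across all tested genes, 48 h also had the fewest differences from the control, 7562 against 9717 to 11465 at the other times.

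**Figure D4:**
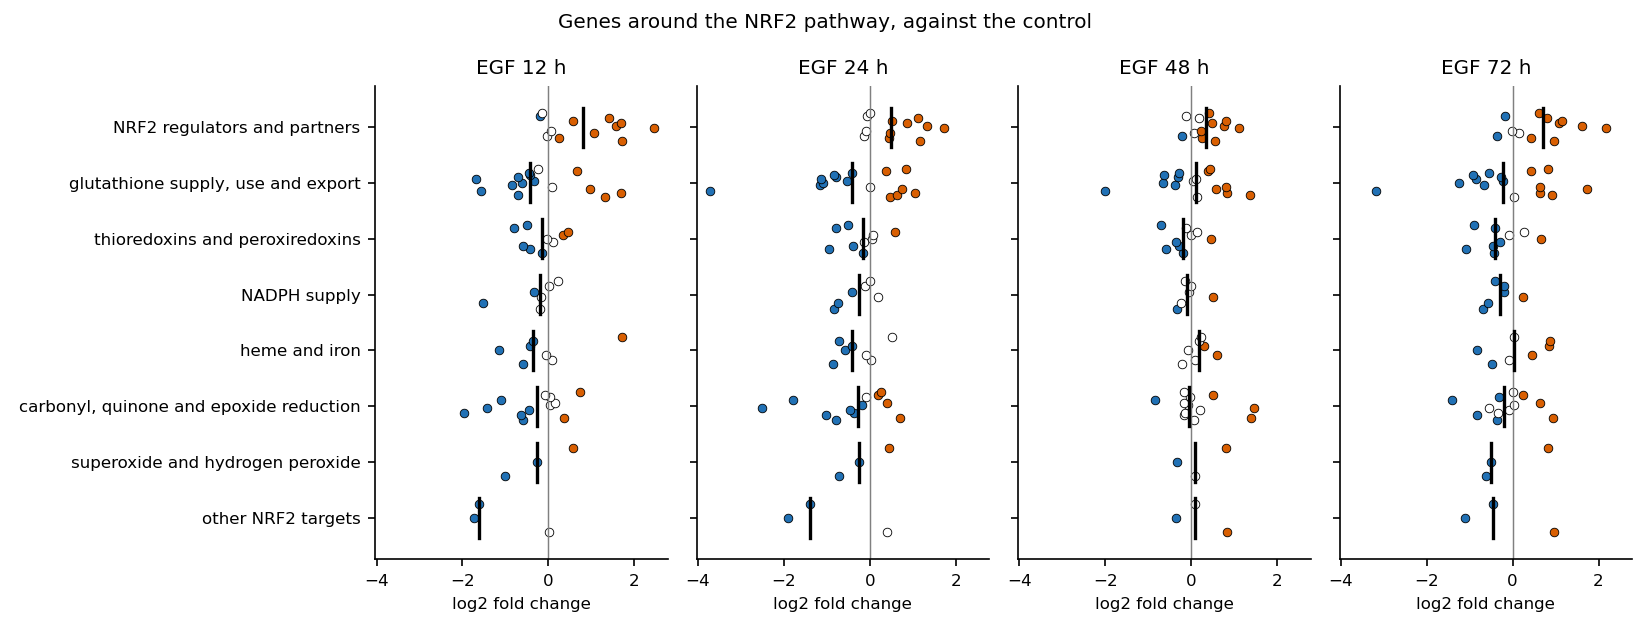
Log2 fold change against the control (horizontal axis) of the 67 tested genes in 8 lists at each EGF time; each point is a gene, orange where higher, blue where lower and white where it did not pass the test, and the black bar is the list's median. The regulators had a median of 0.82 at 12 h, while the other 7 lists had medians below 0 at 12 and 24 h.

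Among the members, the patterns over the 5 groups were nearest for NFE2L2 and GCLC, with a root mean square difference of 0.11 between centred group means of log2 CPM, followed by GCLM and SRXN1 at 0.16. AKR1C1 and AKR1C2 were 0.22 apart. Outside the 10 genes, DEPDC7 (0.018) and KEAP1 (0.030) were among the 3 nearest to NFE2L2, GALT (0.049) and DCTN3 (0.053) were nearest to NQO1, HEATR6 (0.021) to GCLM, TMEM182 (0.031) to HMOX1, and the long noncoding AC007342.5 (0.011) to AKR1C2. The nearest to AKR1B10, KIF15, was 0.15 away, farther than the nearest gene of any other member. These differences were not scaled to how much each gene changed. Genes that changed little can thus lie near one another whatever their pattern, and genes that changed much can lie far from most. Whether near genes share a regulator was not tested.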

How the data were processed

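RNA of 4 biological replicates per group was turned into Lexogen Corall mRNA libraries, and single reads of 75 bases were taken. The deposited table holds counts, whole numbers of reads per gene and library as the authors gave them, beside values the authors normalized with DESeq2 in SARTools and rounded, which are treated here as a score. The submitters' processing notes name hg38; aligner, counter, strand setting and use of molecular identifiers are not given in the sources used here. The deposited score values imply factors that differ between genes, and they served in an alternative alone. Columns of the authors' own comparisons (fold changes and p-values) were not used.

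Counts were tested in R 4.3.3 with edgeR 4.0.16 (filterByExpr, TMM, robust quasi-likelihood fit of 5 group means over 20 libraries); p-values were Benjamini-Hochberg adjusted over 16522 genes, threshold 0.05, and log2 fold changes used a prior count of 0.125. The design of the study's fit, 1 model over all groups, was kept. Depth was 15611961 to 25856953 counts per library, and replicates differed beyond sampling noise (chi-square per degree of freedom of at least 3.54 over 30 pairs). Replicates are biological replicates per the labels, and p-values measure the spread among them. DESeq2 1.42.0, other scalings, filters, a prior count of 2 for the fold changes, a replicate block and leaving out each library were alternatives. Factors from the deposited values were a further alternative, chosen after seeing the data. The fits were checked on simulated data.

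The members, the 8 pathway lists and the marker lists were chosen with earlier results of these data known. Named list genes were those with the largest rise and fall past the threshold in each list and time, with a mean of at least 1 CPM, plus KEAP1, BACH1, SLC7A11 and AKR1C3. The values of 1 list gene that this rule names are not reported here. Positions and overlaps come from GENCODE 29 (GRCh38), promoter windows from RefSeq (GRCh38.p14).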

Additional observations from a re-analysis of the deposited data

Results flagged for a closer look

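TXNRD1 in EGF 48 h replicate 2 was at 50.5 CPM, apart from the other 3 libraries of its group at 55.5 to 56.2 CPM. The gap to the nearest library was 0.885 of the group's range, the 1 case among 50 groups of 4 libraries to exceed Dixon's limit, which chance exceeds in about 1 of 20 groups.

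HMOX1 was below the control at 12 h and above it at 48 and 72 h, and the direct comparisons of these times were 0.90 ± 0.13 (log2, SE) for 48 against 12 h (adjusted p = 1.17e-06, edgeR) and 1.08 ± 0.13 for 72 against 12 h (adjusted p = 9.67e-08), in 4 of 4 libraries each.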

How the results depend on the processing

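Most of the values for the 10 genes kept their direction and their side of the threshold: outside the runs that leave out 1 library, 653 did, 30 no longer passed, 20 newly passed and 11 changed sign. Among these alternatives, a prior count of 2 changed the fold changes alone and kept the p-values of the main fit. Its values could not cross the threshold, and they are counted in the 653. The fits that leave out 1 library gave 507, 34, 7 and 12. SRXN1, AKR1C2 and AKR1B10 kept every call against the control, as did NQO1 at 12, 24 and 72 h. Scaling by library size alone moved the median of all genes at 12 h from -0.05 to -0.34, and upper-quartile scaling moved it to -0.22. At 12 h, library size alone then gave NFE2L2 -0.18, GCLM -0.14, TXNRD1 -0.28, OSGIN1 -0.26 and KEAP1 -0.22, and upper quartile gave -0.062, -0.015, -0.15, -0.14 and -0.10. Library size alone also gave PRDX5 -0.085 at 24 h, UGDH -0.058 at 72 h and SRXN1 -0.016 from 48 to 72 h, and upper quartile gave UGDH -0.0020 at 72 h. Factors per gene from the deposited values, chosen after seeing the data, gave GCLC 0.16 at 12 h and -0.19 from 12 to 24 h, KEAP1 -0.10 at 12 h, FECH 0.0023 at 48 h and UGDH -0.016 at 72 h. With at least 10 counts in every library, TXNRD1 was -0.029 and OSGIN1 -0.013 at 12 h and KEAP1 0.037 at 72 h. Without a filter, CUL3 was 0.015 and PRDX5 0.017 at 12 h and GCLC -0.011 from 12 to 24 h. DESeq2's Wald test gave CUL3 0.0025 and PRDX5 0.0068 at 12 h and KEAP1 0.0023 at 72 h, and its size factors in edgeR gave PRDX5 0.0040 and KEAP1 0.0042.

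Of the counts, factors from the deposited values made 4 of the 10 genes higher at 12 h and 3 lower at 72 h, and over fewer genes tested they called 6338, 4332 and 6559 genes at 24, 48 and 72 h, 5837 from 12 to 24 h, 4994 from 24 to 48 h and 3209 from 48 to 72 h. Library size alone left 1 of the 10 genes higher at 24 h and 1 lower from 12 to 24 h. Upper quartile left 1, and at least 10 counts in every library left 2, lower from 12 to 24 h. With only the 8 libraries compared, 2 of the 10 genes were higher at 48 h and 10 list genes were lower. The cause of these differences was not tested.

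Leaving out 1 library at a time gave 1 to 2 of the 10 genes higher at 12 h, 1 to 2 at 24 h and 2 to 5 at 48 h, and 1 to 3 lower from 12 to 24 h. TXNRD1 ranged from -0.038 to 0.075 at 12 h and from -0.031 to 0.066 at 48 h, CUL3 from -0.076 to 0.028, PRDX5 from -0.11 to 0.047, BLVRB from -0.17 to 0.049 and OSGIN1 from -0.12 to 0.27 at 12 h. At 24 h RBX1 ranged from -0.099 to 0.012, PRDX5 from -0.035 to 0.12 and BLVRB from -0.22 to 0.0016, and at 72 h UGDH from -0.096 to 0.11 and KEAP1 from -0.059 to 0.010. GCLC ranged from -0.0075 to 0.051 from 12 to 24 h and GCLM from -0.13 to 0.035 from 48 to 72 h.

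Whether the replicate numbers pair the libraries was not tested. The correlation of deviations had a median of 0.0092 between equal numbers and -0.0042 between different numbers. Over 0.1 were 5 of 40 pairs with equal numbers and 10 of 120 with different numbers. With their own number 8 of 20 libraries correlated best. With the replicate block, 11577, 9868, 7829 and 10310 genes were called against the control in the order of time. Without it, 11465, 9717, 7562 and 10177 were. NQO1 at 48 h (-0.20, adjusted p = 0.0514, edgeR) was the 1 call among the 10 genes that was lost with the block. Counts of at least 125 reads per library lay behind each value of the 10 genes.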
